A study of Homo sapiens with 2 samples.

Results

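Described here are 52 genes of homologous recombination, the Fanconi anaemia pathway, base and nucleotide excision repair and mismatch repair, with the damage kinases that act ahead of them and 1 gene each of direct reversal and of translesion synthesis. They were selected by symbol from a list of repair genes, and all 52 were found among the 43424 symbols counted. A minimum of 30 reads over both libraries was met by 49 of them, and by 11068 genes in all. The measurements come from Hep3B, a liver cancer cell line that is known to lack p53. A single library was made from cells treated with GLE, which stands for Glehnia littoralis extract, a plant preparation, and a single library from control cells given DMSO. The labels call both groups WT and give no other allele or agent. The exposure described in the labels, 24 h at up to 500 µg/mL, belongs to a viability assay, and no dose or time is stated there for the RNA. The question put to the series was whether GLE has an effect in Hep3B.

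Cells answer broken or damaged DNA through kinases that sense the damage, and then through repair pathways that differ in what they remove. Homologous recombination trims the broken ends and copies the lost sequence from the sister chromatid, so it is used mainly in S and G2 phase, and the Fanconi anaemia pathway feeds crosslinked DNA into it. Base excision repair removes small base lesions, nucleotide excision repair cuts out bulky lesions such as those made by ultraviolet light, and mismatch repair corrects errors of replication.

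The GLE library held 3636351 counts and the DMSO library 5618328, where a count is 1 sequencing read from the 3′ end of an mRNA. The 52 genes took 0.21% of the counts in the GLE library and 0.214% in the DMSO library. With 1 library per group, no difference has a replicate check and no test between conditions was made. Each ratio below is GLE over DMSO after TMM scaling, which sets the libraries to a common level through the bulk of genes, with an exact 95% interval that covers counting error only. Levels are in CPM, a gene's counts relative to the size of the scaled library, and are not divided by gene length. In this bulk RNA, fewer cells of a type and less RNA per cell cannot be told apart. All 9 hepatocyte markers checked were measured, 8 of them with an interval below 1, against 30.1% of all measured genes. The other, SERPINA1, was higher at 1.45 (1.31 to 1.62). Their summed level was 5098 CPM in the GLE library and 8189 CPM in the DMSO library. ALB alone held 9574 of their 18027 GLE counts and 24988 of their 47315 DMSO counts. Among markers of other cells, VWF, CDH5, KDR and CD3E had 0 counts in both libraries. The 5 fibroblast markers summed to 57 counts in the GLE library and 21 in the DMSO library, with COL1A1 at 29 GLE and 4 DMSO counts. PECAM1, the only endothelial marker with reads, had 1 GLE and 36 DMSO counts. The leukocyte markers summed to 1552 GLE and 2749 DMSO counts, of which LYZ held 1540 GLE and 2711 DMSO counts. Their part in the results below was not tested.

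The repair genes lay on both sides of 1, and most were within 2-fold. A ratio of 2 or more was found for 6 of the 49 measured members (12.2%), against 9.54% of all measured genes. These were EXO1, FANCB, RAD54L, DDB2, FANCM and BLM. A ratio of 0.5 or less was found for RAD51D alone (2.04%), against 10.5% of all measured genes. The interval lay above 1 for 16 members (32.7%, against 27.7% of all genes) and below 1 for 8 (16.3%, against 30.1%). For the remaining 25 the interval held 1, and their ratios ran from 0.759 for FANCE to 1.77 for MUTYH. The median log2 ratio was 0.07 over the members and -0.04 over all measured genes. The shares of higher members are near those of all genes, and no excess of high repair genes can be read from them. Scaled by total counts instead, 4 members passed the limit of 2 and 5 the limit of 0.5, against 8.26% and 12.2% of all genes under that scaling, and 13 intervals lay above 1 and 11 below, against 23.9% and 34.4% of all genes. On the lower side under total counts, the members' share was under that of all genes for the intervals, and near it for the 2-fold limit. Under TMM scaling it was under that of all genes for both. At a limit of 1.5-fold, 12 members were higher, against 19.3% of all genes, and 6 were lower, against 21.9%. The whole interval lay beyond 2-fold for 1 member on the higher side, against 3.82% of all genes, and for 0 on the lower side, against 2.86%. With a minimum of 100 counts, 4 of 45 members passed the limit of 2, against 7.31% of all genes. RAD54L and DDB2 fell under that minimum. The limit of 0.5 was passed there by 1 member, against 6.91%.

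**Figure D1:**
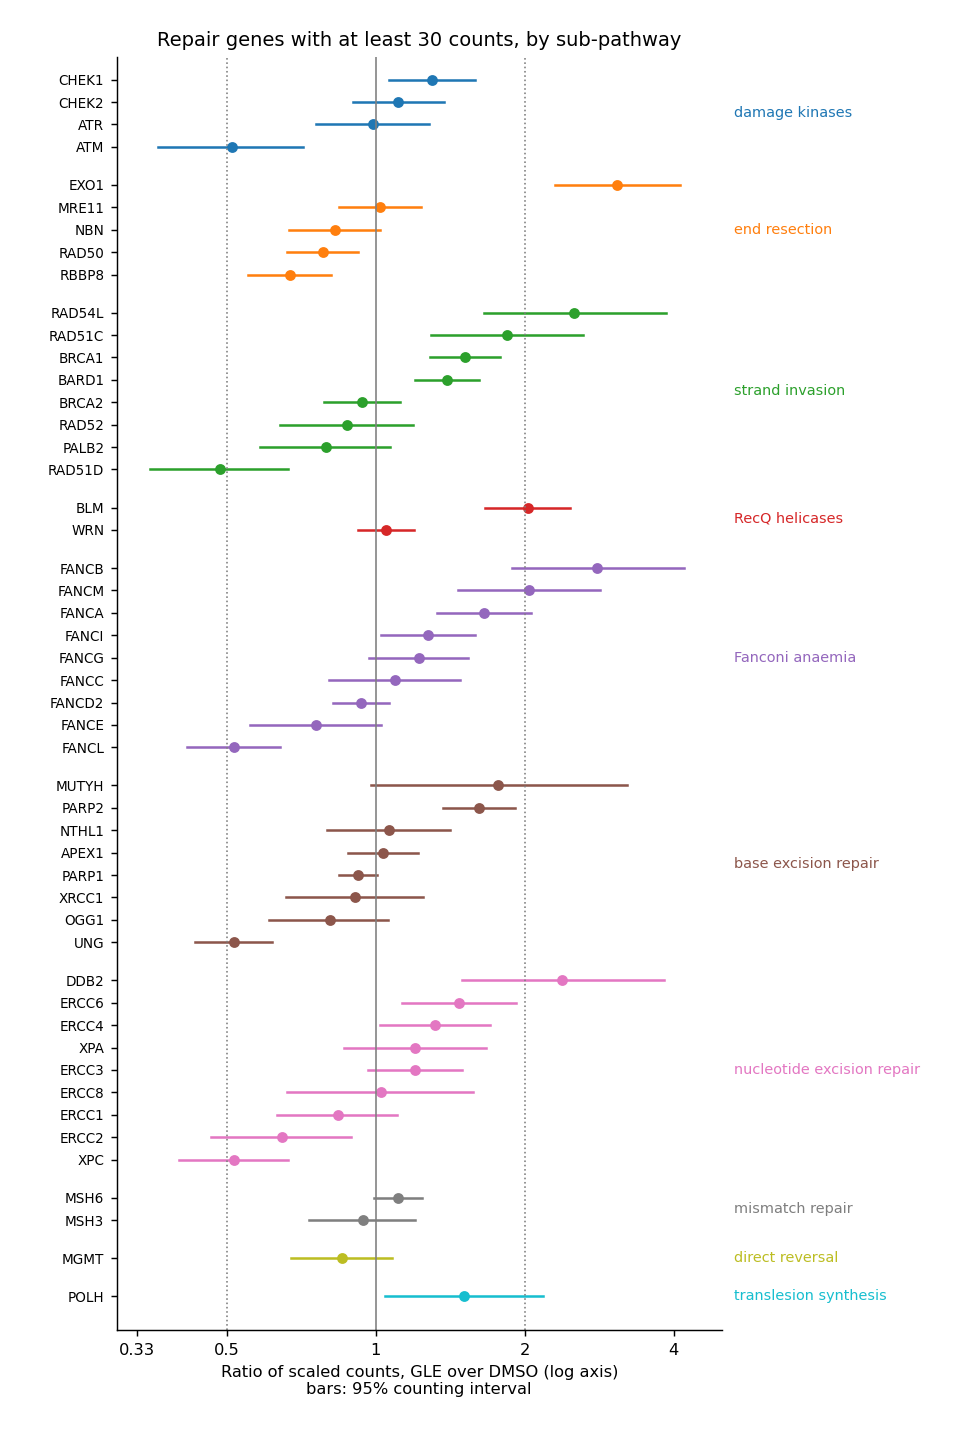
Ratios of GLE over DMSO for the 49 repair genes with at least 30 counts (log axis), grouped by sub-pathway, with bars for the 95% counting interval, a solid line at 1 and dotted lines at 0.5 and 2. EXO1 has the highest ratio at 3.07 and RAD51D the lowest at 0.486, and each of the larger sub-pathways spans 1.

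ATM, the kinase that responds to DNA breaks, had 48 counts (13.6 CPM) in the GLE library and 153 counts (26.5 CPM) in the DMSO library. Its ratio was 0.513 (0.363 to 0.713), lower in the GLE library and just short of 2-fold. ATR, the related kinase that responds to stalled replication, had 95 GLE and 157 DMSO counts and a ratio of 0.989 (0.758 to 1.28), so no difference was detectable at this depth. CHEK1, the checkpoint kinase that ATR activates, had 183 GLE and 230 DMSO counts and was higher at 1.30 (1.06 to 1.59), but at 1.21 (0.973 to 1.51) after thinning of the DMSO library to the depth of the GLE library. CHEK2, which ATM activates, had 151 GLE and 222 DMSO counts and a ratio of 1.11 (0.898 to 1.37). Copies of part of CHEK2 elsewhere in the genome make its count uncertain.

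Of the genes that process broken ends, EXO1 stood apart from the rest. EXO1, an exonuclease of end resection and also of mismatch repair, lies on chromosome 1 (241847986 to 241889939, GRCh38). It had 141 counts (39.9 CPM) in the GLE library and 75 counts (13.0 CPM) in the DMSO library, a ratio of 3.07 (2.31 to 4.12). It was the member whose whole interval lay beyond 2-fold. RBBP8, which encodes CtIP, the factor that starts resection, had 156 GLE and 380 DMSO counts and was lower at 0.671 (0.553 to 0.810). RAD50, the tethering subunit of the MRN complex, had 215 GLE and 450 DMSO counts and was lower at 0.781 (0.661 to 0.921). An unnamed protein-coding gene on the same strand covers 79.7% of the exonic bases of RAD50. The other MRN subunits had intervals that held 1. MRE11, its nuclease, had 180 GLE and 288 DMSO counts and a ratio of 1.02 (0.843 to 1.23), and NBN, its regulatory subunit, had 137 GLE and 271 DMSO counts and a ratio of 0.826 (0.668 to 1.02). Under total counts NBN was at 0.781 (0.631 to 0.963).

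Genes of strand invasion, in which the trimmed end is loaded with recombinase and paired with its template, lay on both sides. The interval was above 1 for 4 of 8 members and below 1 for 1, where 27.7% of all measured genes lay above and 30.1% below. RAD54L, a motor protein that remodels DNA during strand exchange, had 60 counts (17.0 CPM) in the GLE library and 39 counts (6.75 CPM) in the DMSO library, a ratio of 2.51 (1.65 to 3.86). The last 500 exonic bases of RAD54L in GENCODE release 29 all lie within LRRC41, a gene on the opposite strand with 35 GLE and 88 DMSO counts. With the strand setting of the counting not given, reads of these genes cannot be told apart. RAD51C, a paralogue of the recombinase that helps to load it, had 71 GLE and 63 DMSO counts and was higher at 1.84 (1.29 to 2.63).

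BRCA1, the scaffold that promotes resection and recombinase loading, had 291 GLE counts (82.3 CPM) and 314 DMSO counts (54.3 CPM), a ratio of 1.51 (1.29 to 1.78). BARD1, the partner with which it forms a ubiquitin ligase, had 326 GLE and 382 DMSO counts and a ratio of 1.39 (1.20 to 1.62). Both partners were thus higher in the GLE library by similar amounts. PALB2, which bridges BRCA1 and BRCA2, had 67 GLE and 138 DMSO counts and a ratio of 0.793 (0.583 to 1.07). BRCA2, the recombinase loader, had 203 GLE and 353 DMSO counts and a ratio of 0.940 (0.787 to 1.12), and RAD52, which anneals single strands, had 66 GLE and 123 DMSO counts and a ratio of 0.877 (0.640 to 1.19). For PALB2, BRCA2 and RAD52 a difference was not detectable at this depth.

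RAD51D, another paralogue of the recombinase, was the lowest of the measured members. It lies on chromosome 17 (35092221 to 35119860) and had 52 counts (14.7 CPM) in the GLE library and 175 counts (30.3 CPM) in the DMSO library, a ratio of 0.486 (0.349 to 0.665). A read-through gene, RAD51L3-RFFL, shares 8.0% of its exonic bases and had 0 counts in both libraries.

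Among the RecQ helicases, which unwind recombination intermediates, BLM was higher and no difference was detectable for WRN. BLM, the helicase that dissolves crossed-over DNA, lies on chromosome 15 (90717346 to 90816166) and had 231 counts (65.3 CPM) in the GLE library and 186 counts (32.2 CPM) in the DMSO library, a ratio of 2.03 (1.67 to 2.48). WRN, which also carries an exonuclease, had 391 GLE and 609 DMSO counts and a ratio of 1.05 (0.922 to 1.19). BLM and FANCM, described next, were at 1.92 and 1.93 under total-count scaling, short of 2-fold.

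The Fanconi anaemia genes held 2 of the members beyond 2-fold and also FANCL, which was among the lower members. FANCB, a subunit of the core complex, lies on the X chromosome (14689524 to 14873069) and had 72 counts (20.4 CPM) in the GLE library and 42 counts (7.27 CPM) in the DMSO library, a ratio of 2.80 (1.89 to 4.20). FANCM, the translocase that brings the core complex to DNA, lies on chromosome 14 (45135930 to 45200890) and had 86 GLE counts (24.3 CPM) and 69 DMSO counts (11.9 CPM), a ratio of 2.04 (1.47 to 2.84). FANCA, a large core subunit, was higher at 1.65 (1.33 to 2.06) with 169 GLE and 167 DMSO counts. Exonic bases of ZNF276, on the opposite strand, cover 337 of the last 500 of FANCA. FANCI, which with FANCD2 is the target of the core complex, was higher at 1.28 (1.03 to 1.58) with 153 GLE and 196 DMSO counts, but its interval held 1 under total counts, at 1.21, and after thinning, at 1.26 (0.993 to 1.61).

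FANCL, the ubiquitin ligase of the core complex, was lower at 0.518 (0.416 to 0.640), with 115 counts (32.5 CPM) in the GLE library and 363 counts (62.8 CPM) in the DMSO library. VRK2, on the opposite strand, covers 394 of its last 500 exonic bases and had 134 GLE and 210 DMSO counts. The part of opposite-strand reads in this value was not tested. FANCD2 had 365 GLE and 638 DMSO counts and a ratio of 0.935 (0.820 to 1.06), with copies of part of its sequence elsewhere in the genome. FANCC, FANCE and FANCG, further core subunits, had ratios of 1.09 (0.806 to 1.48), 0.759 (0.556 to 1.03) and 1.22 (0.971 to 1.53). Subunits of the core complex thus stood at ratios from 0.518 to 2.80 in the same pair of libraries.

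**Figure D2:**
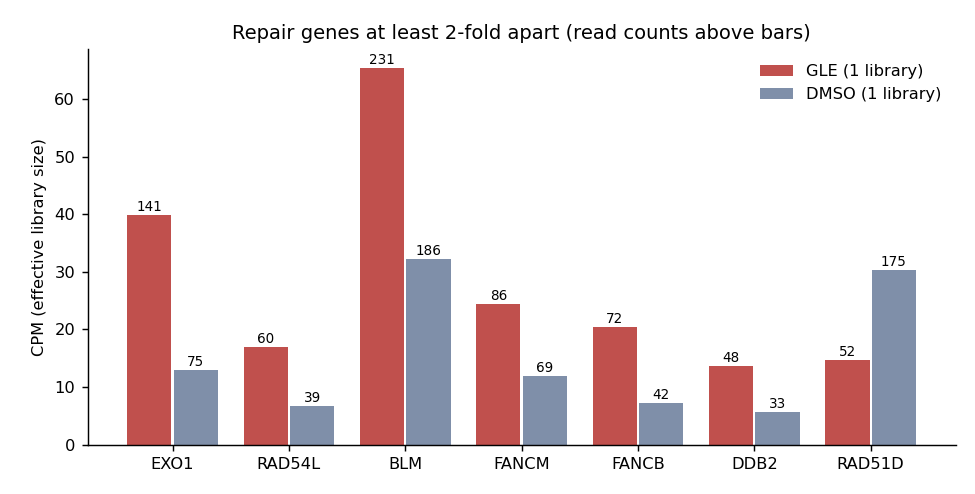
Levels in CPM of the 7 repair genes at least 2-fold apart, with the single GLE library (left bar) beside the single DMSO library (right bar) and the read counts above each bar; there are no error bars because there is 1 library per group. EXO1, RAD54L, BLM, FANCM, FANCB and DDB2 are higher in the GLE library, and RAD51D is lower.

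Promoters are printed for 5 of the 7 members beyond 2-fold, the 4 of end resection, the RecQ helicases, the core complex and lesion sensing that were higher and the 1 that was lower, to show the sequence at their starts. Each is the RefSeq window of GRCh38.p14 from 250 bases before to 50 after a start, on the gene's own strand, in lower case with matches to the searched motifs in capitals. EXO1 is at chr1:241847954-241848253 on the plus strand, BLM at chr15:90717096-90717395 on the plus strand, FANCB at chrX:14873020-14873319 on the minus strand, DDB2 at chr11:47214204-47214503 on the plus strand and RAD51D at chr17:35119709-35120008 on the minus strand. EXO1, DDB2 and RAD51D have 2 starts each in the table, of which the first listed is shown. For EXO1 and RAD51D the start shown lies inside the gene bounds given above, not at their edge.
EXO1: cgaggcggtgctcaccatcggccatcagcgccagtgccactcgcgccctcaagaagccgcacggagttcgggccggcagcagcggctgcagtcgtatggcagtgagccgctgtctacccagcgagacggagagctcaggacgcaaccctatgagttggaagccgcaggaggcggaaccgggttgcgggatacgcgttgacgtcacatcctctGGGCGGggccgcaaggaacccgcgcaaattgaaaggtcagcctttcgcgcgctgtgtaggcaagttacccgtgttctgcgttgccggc
BLM: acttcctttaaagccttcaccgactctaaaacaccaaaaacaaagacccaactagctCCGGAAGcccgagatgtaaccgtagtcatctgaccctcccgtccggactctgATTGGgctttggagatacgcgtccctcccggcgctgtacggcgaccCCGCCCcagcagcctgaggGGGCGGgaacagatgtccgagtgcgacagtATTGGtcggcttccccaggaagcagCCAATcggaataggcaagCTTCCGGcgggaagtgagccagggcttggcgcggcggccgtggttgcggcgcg
FANCB: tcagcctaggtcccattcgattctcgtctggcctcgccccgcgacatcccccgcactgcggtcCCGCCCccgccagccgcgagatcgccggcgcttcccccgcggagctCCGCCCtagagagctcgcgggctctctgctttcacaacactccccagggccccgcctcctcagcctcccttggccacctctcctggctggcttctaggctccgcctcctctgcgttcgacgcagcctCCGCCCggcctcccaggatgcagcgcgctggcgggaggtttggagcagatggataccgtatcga
DDB2: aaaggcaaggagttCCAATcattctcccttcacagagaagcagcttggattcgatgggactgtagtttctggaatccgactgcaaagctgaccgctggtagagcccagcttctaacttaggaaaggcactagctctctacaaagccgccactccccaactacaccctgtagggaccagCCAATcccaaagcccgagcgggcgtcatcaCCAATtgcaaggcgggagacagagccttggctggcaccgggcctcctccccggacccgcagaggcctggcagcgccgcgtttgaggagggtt
RAD51D: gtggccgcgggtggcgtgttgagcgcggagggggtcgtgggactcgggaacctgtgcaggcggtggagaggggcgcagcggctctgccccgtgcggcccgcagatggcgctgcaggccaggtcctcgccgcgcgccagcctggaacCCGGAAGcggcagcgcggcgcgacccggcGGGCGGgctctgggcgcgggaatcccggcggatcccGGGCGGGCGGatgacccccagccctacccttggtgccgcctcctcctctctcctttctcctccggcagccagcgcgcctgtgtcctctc

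The letters searched, on both strands, were TTTCCCGC or TTTGGCGC for E2F, TTTGAA for the cell cycle element CHR, CCAAT for the CCAAT box, CCGGAAG for the ETS core, TGCGCA for the NRF1 core and GGGCGG for the SP1 core. Promoters were in the table for 49 of the 52 members, and for 27305 genes in all, and a gene counts if any listed start has a match. In this paragraph, all genes means these 27305, whether or not they were measured here. The shares are thus not set against genes of like expression, and no trait of repair genes is read from them. The SP1 core was in 40 member genes (81.6%, against 48.3% of all genes), the ETS core in 15 (30.6%, against 12.2%) and the NRF1 core in 12 (24.5%, against 9.76%). E2F letters were in 5 (10.2%, against 2.75%), which were FANCC, FANCD2, MSH3, MSH6 and XPC. The CCAAT box was in 22 (44.9%, against 39.7%) and CHR in 8 (16.3%, against 18.2%). Among members with an interval above 1, 15 had a promoter in the table, and 0 of these held the E2F letters and 12 the SP1 core. Among the 8 with an interval below 1, 1 held the E2F letters and 7 the SP1 core. In the windows printed above, BLM has 3 CCAAT boxes, 2 ETS cores and 2 SP1 cores, and EXO1 has 1 SP1 core. FANCB has 3 SP1 cores, DDB2 has 3 CCAAT boxes, and RAD51D has 1 ETS core and 3 SP1 cores, of which the last pair overlap. A match is only a match of letters.

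Base excision repair opens with glycosylases, which cut out a damaged base, and their intervals held 1 or lay below it. UNG, which removes uracil from DNA, had 167 counts (47.2 CPM) in the GLE library and 528 counts (91.4 CPM) in the DMSO library, a ratio of 0.517 (0.432 to 0.616). NEIL1, a glycosylase for oxidised bases, had 2 counts in the GLE library and 24 in the DMSO library, under the minimum of 30, and a ratio of 0.136 (0.0156 to 0.548). All of the last 500 exonic bases of NEIL1 lie within MAN2C1 on the opposite strand. For OGG1, NTHL1 and MUTYH, further glycosylases for oxidised bases or the mispairs they cause, the ratios were 0.807 (0.609 to 1.06), 1.06 (0.799 to 1.41) and 1.77 (0.977 to 3.22). MUTYH rested on 26 GLE and 24 DMSO counts.

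Of the later steps, PARP2 alone had an interval that left out 1. PARP2, a sensor of strand breaks, had 286 counts (80.9 CPM) in the GLE library and 289 counts (50.0 CPM) in the DMSO library, a ratio of 1.62 (1.37 to 1.91). PARP1, its better known paralogue, had 786 GLE and 1392 DMSO counts, the most of any member, and a ratio of 0.923 (0.844 to 1.01). APEX1, the endonuclease that cuts beside the missing base, was at 1.04 (0.878 to 1.22) with 242 GLE and 382 DMSO counts, and XRCC1, the scaffold of the ligation step, at 0.909 (0.659 to 1.25) with 64 GLE and 115 DMSO counts. The interval of PARP1 was narrow and reached just past 1, and under total counts it lay below 1 at 0.872 (0.798 to 0.953).

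In nucleotide excision repair, the lesion sensors lay at opposite ends. DDB2, which finds ultraviolet lesions in chromatin, lies on chromosome 11 (47214454 to 47239217) and had 48 counts (13.6 CPM) in the GLE library and 33 counts (5.71 CPM) in the DMSO library, a ratio of 2.38 (1.49 to 3.82). XPC, the sensor that acts after it, lies on chromosome 3 (14145147 to 14178601) and had 84 GLE counts (23.8 CPM) and 265 DMSO counts (45.9 CPM), a ratio of 0.518 (0.400 to 0.664). An unnamed protein-coding gene on the opposite strand covers 325 of the last 500 exonic bases of XPC.

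The transcription-coupled branch and the incision machinery lay closer to 1. ERCC6, which detects stalled RNA polymerase, had 112 GLE and 124 DMSO counts and was higher at 1.48 (1.13 to 1.92), while ERCC8, its ubiquitin ligase partner, was at 1.02 (0.660 to 1.57). ERCC2, a helicase of TFIIH, had 55 GLE and 139 DMSO counts and was lower at 0.647 (0.464 to 0.890), and ERCC3, the other TFIIH helicase, was at 1.20 (0.964 to 1.49). ERCC4, the nuclease subunit XPF, had 113 GLE and 140 DMSO counts and was higher at 1.32 (1.02 to 1.70), but at 1.25 (0.965 to 1.61) under total counts. ERCC1, its partner, was at 0.838 (0.632 to 1.10), and XPA, which verifies the lesion, at 1.20 (0.864 to 1.67). ERCC5, the other incision nuclease, had 0 counts in both libraries, which allows a level of up to 0.848 CPM in the GLE library and 0.519 CPM in the DMSO library by counting error. The read-through gene BIVM-ERCC5 shares 63.2% of its exonic bases on the same strand and also had 0 counts in both libraries. How reads on both genes were counted is not stated, and its part in these counts of 0 was not tested.

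The 2 measured members listed under mismatch repair, MSH6 and MSH3, lay near 1, and both intervals held 1. EXO1, which also acts in mismatch repair, is listed under end resection, and related mismatch repair genes are given below. MSH6, which recognises single mismatches, had 545 GLE and 802 DMSO counts and a ratio of 1.11 (0.994 to 1.24), or 1.12 (1.00 to 1.25) with DESeq2 size factors. MSH3, which recognises larger loops, had 106 GLE and 184 DMSO counts and a ratio of 0.941 (0.734 to 1.20). PMS2, a subunit of the endonuclease that acts next, had 17 GLE and 8 DMSO counts, under the minimum, and a ratio of 3.47 (1.42 to 9.30). PMS2 has near-identical copies in the genome, so its count is uncertain. MGMT, which takes alkyl groups directly off guanine, had 112 GLE and 214 DMSO counts and a ratio of 0.855 (0.674 to 1.08). POLH, the polymerase that copies past ultraviolet lesions, had 60 GLE and 65 DMSO counts and was higher at 1.51 (1.04 to 2.18), but at 1.43 (0.987 to 2.06) under total counts.

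Summed over all its members with no minimum, strand invasion stood at 321 CPM in the GLE library and 275 CPM in the DMSO library, a ratio of 1.17 (1.08 to 1.26). The RecQ helicases summed to 176 CPM in the GLE library and 138 CPM in the DMSO library, a ratio of 1.28 (1.15 to 1.42). The 9 base excision repair members were lower, at 491 CPM in the GLE library and 527 CPM in the DMSO library, a ratio of 0.932 (0.878 to 0.989). Their interval held 1 at 0.951 (0.896 to 1.01) when ratios were centred on the median of genes with 100 counts or more. Related genes outside the members, described below, summed to 1.16 (1.09 to 1.23) for base excision repair and 1.14 (1.08 to 1.19) for homologous recombination. The intervals of these sums cover the counting error of summed reads, not the spread among genes, so they are no test between sub-pathways. Sums of members held 1 within their intervals for the damage kinases at 1.02 (0.910 to 1.15), end resection at 0.925 (0.849 to 1.01, and 0.875 with bounds of 0.802 and 0.953 under total counts), the Fanconi anaemia genes at 1.06 (0.984 to 1.14), nucleotide excision repair at 1.01 (0.917 to 1.10) and mismatch repair at 1.10 (0.994 to 1.21). These sums follow the genes with most reads, so PARP1 gave 786 of the 1737 GLE reads of base excision repair.

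Median log2 ratios, which weigh each member equally, were -0.27 for end resection, -0.03 for base excision repair, 0.03 for mismatch repair and 0.07 for the damage kinases. They were 0.20 for strand invasion, 0.27 for nucleotide excision repair, 0.29 for the Fanconi anaemia genes and 0.55 for the pair of RecQ helicases. Medians near 0 turned sign with the scaling: under total counts the damage kinases were at -0.01 and mismatch repair at -0.05. Median and sum differed in direction under total counts for nucleotide excision repair, at 0.18 and 0.951, and for mismatch repair, whose sum was 1.04. Within strand invasion, the median was -0.09 when members under 100 counts were left out. No test was made between sub-pathways, and genes are not replicates.

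**Figure D3:**
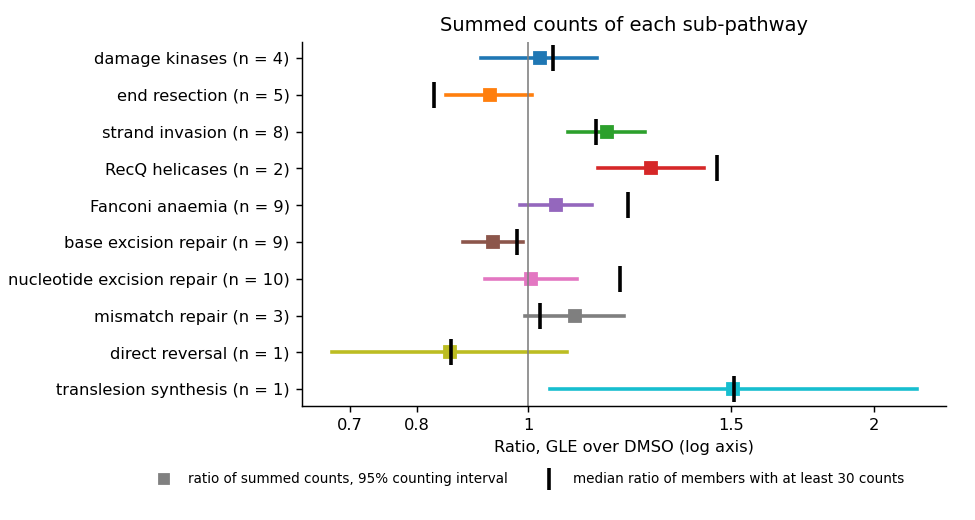
Ratio of summed counts, GLE over DMSO (squares, log axis), with bars for the 95% counting interval and black ticks for the median ratio of the measured members, by sub-pathway with its number of genes. Strand invasion and the RecQ helicases lie above 1 at 1.17 and 1.28, and the base excision repair members lie below 1 at 0.932.

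Pairs of partners or paralogues were set against each other within the same libraries, which removes the scaling. The 12 pairs were picked after their values were seen, so the number whose interval left out 1, which was 9, describes the choice, and nothing is read from it. FANCB over FANCL was 5.39 (3.43 to 8.57), DDB2 over XPC 4.57 (2.68 to 7.88) and RAD51C over RAD51D 3.78 (2.33 to 6.16). The genes of each of these pairs belong to the same complex or act in the same step. BLM over WRN was 1.93 (1.52 to 2.45), PARP2 over PARP1 1.75 (1.45 to 2.12) and ATM over ATR 0.519 (0.335 to 0.798). Other partners lay nearer to 1, with ERCC4 over ERCC1 at 1.57 (1.07 to 2.31), FANCI over FANCD2 at 1.36 (1.06 to 1.76) and MRE11 over RAD50 at 1.31 (1.01 to 1.69). For BRCA1 over BARD1 the value was 1.09 (0.868 to 1.36), for CHEK1 over CHEK2 1.17 (0.872 to 1.57) and for MSH6 over MSH3 1.18 (0.901 to 1.55), and these 3 intervals held 1.

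**Figure D4:**
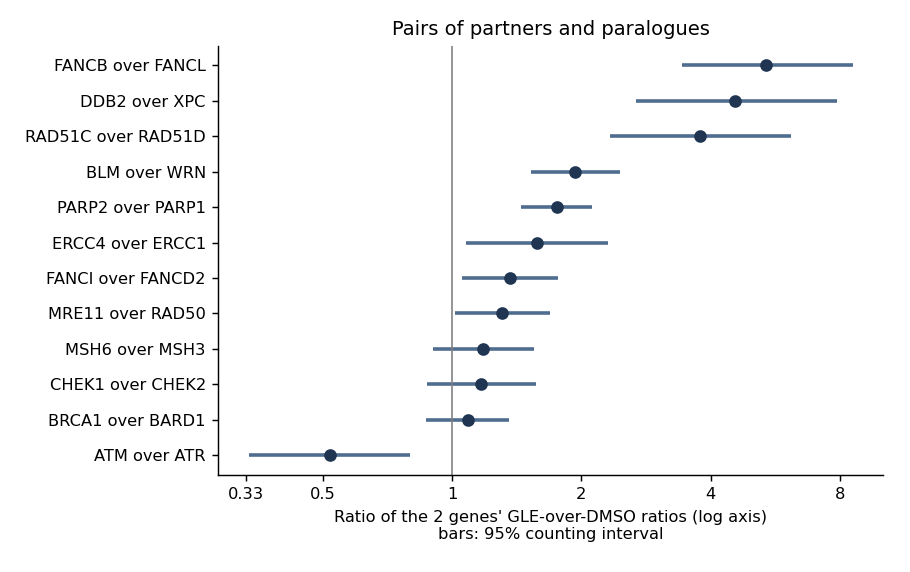
Ratio of the GLE-over-DMSO ratios of 12 pairs of repair genes (points, log axis), with bars for the 95% counting interval and a line at 1. FANCB over FANCL is highest at 5.39, ATM over ATR is the pair below 1 at 0.519, and 3 intervals hold 1.

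Another 105 genes of the same pathways, outside the members, also lay on both sides of 1. Of 99 measured, 10 (10.1%) passed the limit of 2 and 4 (4.04%) the limit of 0.5, against 9.54% and 10.5% of all measured genes. Of their intervals, 31 (31.3%) lay above 1 and 20 (20.2%) below, against 27.7% and 30.1% of all genes, and the median log2 ratio was 0.04. The shares on the higher side are near those of all genes. In recombination, SWI5, an accessory factor of strand exchange, was higher at 4.49 (2.65 to 7.92) and RAD54B, a relative of RAD54L, at 2.30 (1.65 to 3.22). RPA2 and RPA1, subunits of the complex that coats single strands, were lower at 0.467 (0.323 to 0.662) and 0.698 (0.600 to 0.810). In checkpoint signalling, RAD9A, part of the clamp that activates ATR, was higher at 2.69 (2.21 to 3.27) and WEE1, which holds back mitosis, at 1.88 (1.51 to 2.36), while the clamp subunit RAD1 was at 0.767 (0.586 to 0.998).

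Around the Fanconi members, UBE2T, the conjugating enzyme that works with FANCL, was higher at 2.05 (1.56 to 2.70), while the nuclease FAN1 and FAAP24, the partner of FANCM, were lower at 0.578 (0.394 to 0.831) and 0.552 (0.336 to 0.879). In base excision repair, PARG, which removes the polymer that PARP enzymes make, was at 2.58 (1.83 to 3.66) and APTX, which cleans failed ligation ends, at 2.32 (1.84 to 2.94), with LIG3, the ligase bound by XRCC1, at 0.607 (0.495 to 0.741) and the endonuclease APEX2 at 0.577 (0.429 to 0.767). In nucleotide excision repair, CDK7, the TFIIH kinase, was at 2.35 (1.67 to 3.34) and the elongation factor ELOF1 at 2.28 (1.91 to 2.72), against CUL4B at 0.531 (0.426 to 0.657) and RBX1 at 0.803 (0.718 to 0.898), both parts of cullin ubiquitin ligases. These genes were named by a rule that takes both directions, so their balance is not read. Of the related genes measured, intervals lay above and below 1 for 1 and 4 of 9 Fanconi genes, where the members had 4 and 1 of 9. They did so for 5 and 3 of 16 in base excision repair and 5 and 4 of 16 in nucleotide excision repair. The shares of all genes were 27.7% above and 30.1% below.

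Of the mismatch repair partners, the clamp loader genes RFC3 and RFC1 were higher at 1.69 (1.52 to 1.88) and 1.38 (1.28 to 1.49), and POLD1, the catalytic subunit of DNA polymerase delta, and MLH3 were lower at 0.418 (0.249 to 0.674) and 0.590 (0.398 to 0.858). Among genes of direct reversal and damage bypass, UBE2B, which works with RAD18, was at 2.03 (1.77 to 2.32) and ALKBH3, a demethylase, at 2.01 (1.41 to 2.86), while its relative ALKBH2 was at 0.431 (0.263 to 0.682) and REV3L, the catalytic subunit of polymerase zeta, at 0.596 (0.474 to 0.744).

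Several members are known to be transcribed more in cycling cells, so cell cycle lists were read beside them. Such members did not move as a group. EXO1, BLM, BRCA1 and RAD54L had intervals above 1, those of BRCA2 and FANCD2 held 1, and that of UNG lay below 1. The 14 S phase genes summed to 1158 CPM in the GLE library and 1417 CPM in the DMSO library, a ratio of 0.817 (0.787 to 0.849), with 3 intervals above 1 and 6 below. The 10 genes of G2 and mitosis summed to 2973 CPM in the GLE library and 2572 CPM in the DMSO library, a ratio of 1.16 (1.13 to 1.19), with 6 above and 2 below. Of all measured genes, 27.7% had an interval above 1 and 30.1% below. TOP2A alone held 5884 of the 10513 GLE counts of G2 and mitosis and 8037 of the 14861 DMSO counts. The part of cell cycle phase in the members' values was not tested.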

How the data were processed

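Messenger RNA of Hep3B cells was read from the 3′ end in 1 GLE and 1 DMSO library. The kit was Lexogen QuantSeq, per the labels' protocols. The values deposited by the authors are whole-number counts for each gene symbol, not normalized. Per the submitters' processing notes, fastp, STAR and HTSeq were used with GRCh38. Their versions, the gene annotation and the strand setting were not stated.

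Counts were scaled by TMM in edgeR 4.0.16 under R 4.3.3, with factors of 0.972 for the GLE library and 1.03 for the DMSO library. CPM was taken over effective library sizes. Each ratio carries a 95% interval obtained from the exact (Clopper-Pearson) bounds on the share of reads that came from the GLE library. It covers counting error only and treats reads as independent molecules, although the labels name no molecular identifiers. Genes with at least 30 counts over both libraries were kept, 0.5 was added to each count for log2 ratios, and a floor of 3 counts stood for a count of 0. With 0 residual degrees of freedom, no p-value was computed. Pair ratios were conditional odds ratios from SciPy 1.17.1. The computation was tested on simulated counts drawn with counting error alone, so variation between cultures or libraries was not covered.

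Gene positions and promoters came from RefSeq (GRCh38.p14, 42739 of the 43424 symbols matched), and exon overlaps and transcript GC content from GENCODE release 29 (GRCh38). The members, sub-pathways and lists were chosen with earlier results of these data known. By rule, every member was accounted for, and of the 105 related genes those named were up to 2 in each direction in each list, by the interval bound nearest to 1. Some core genes of these pathways are not in either list and were not analysed here, and 1 marker gene is not reported here. Alternatives were other scalings (total counts, DESeq2 1.42.0 size factors, upper-quartile factors, centring at the median log2 ratio of genes from 100 counts upwards, totals that omit mitochondrial genes and the 20 genes with most reads), minimums of 10, 100 or no counts, 2 counts added, thinning of the DMSO library, and call rules of 1.5-fold or a whole interval beyond 2-fold. Removal of a GC trend (lowess span 0.3, statsmodels 0.14.6) was added after seeing the data.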

Additional observations from a re-analysis of the deposited data

How the results depend on the processing

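The ratio of each of the 49 measured members stayed within its own counting interval under the 7 alternatives that could move it, and none of the 24 members with an interval that left out 1 changed direction. Most of these alternatives are scalings, which move every ratio by the same factor. That factor was small beside the intervals, as for PARP1, at 0.872 under total counts with a reported interval of 0.844 to 1.01. For the scalings, staying within the interval therefore says little. It also says little for thinning, which draws a part of the same DMSO reads. The same holds for the GC trend, which moved the log2 ratio of a member by at most 0.21, for BRCA2. For CHEK1, FANCI, ERCC4 and POLH the interval came to hold 1 under at least 1 alternative each. For NBN, PARP1, MSH6, FANCE, BRCA2, FANCG and MUTYH it came to leave 1 out. Counts near a limit moved more. Members at least 2-fold lower numbered 1 as reported, 5 under total counts (12.2% of all genes), 3 with the GC trend removed (10.3% of all genes), 2 with a minimum of 10 counts (13.9%), 2 with no minimum (21.4%), 6 with a limit of 1.5-fold (21.9%) and 0 where the whole interval had to lie beyond 2-fold (2.86%). None of these shares of members exceeds that of all genes. Members at least 2-fold higher numbered 6 as reported, 12 with the limit of 1.5-fold, against 19.3% of all genes, and 1 with the whole interval, against 3.82%. The 4 added under total counts were ATM, FANCL, UNG and XPC, with reported ratios of 0.513 to 0.518, while BLM and FANCM fell short of 2-fold there, with the GC trend removed and with totals that omit the most abundant genes, and BLM also with upper-quartile factors and after thinning. The ratio of counts summed over all 52 members was 1.03 (1.00 to 1.06) as reported and 0.978 under total counts, so its direction rests on the scaling. That of base excision repair lost its call when centred on the median, and those of end resection, mismatch repair and the Fanconi anaemia genes left out 1 under some scalings. The median log2 ratio of strand invasion was 0.20 as reported and -0.0882 with a minimum of 100 counts, which left out RAD54L, and 0.06 with the GC trend removed. Other medians near 0 turned sign: all members to -0.01 under total counts, the damage kinases to -0.01 under total counts and with the GC trend removed, base excision repair to 0.03 after thinning and 0.02 with the GC trend removed, and mismatch repair to -0.05 and -0.07 under total counts and with the GC trend removed. Nucleotide excision repair was at 0.08 after thinning, end resection at -0.46 with the GC trend removed, base excision repair at -0.12 and mismatch repair at 0.15 with a minimum of 10 counts. No paired analysis was possible because each group has 1 library. With 26 to 786 GLE reads per measured member, depth limits what could be seen: MUTYH at 1.77 had an interval that held 1.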

Other observations

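Transcript GC content, taken from the longest coding transcript, had a Spearman correlation with the log2 ratio of -0.09 over the 49 measured members and -0.18 over 10125 measured genes, a description across genes that share both libraries. The members' transcripts had a median GC content of 43.8%, against 47.8% over all measured genes. With the trend removed, EXO1 stood at 2.88, FANCB at 2.44, RAD54L at 2.58 and DDB2 at 2.47, and FANCM at 1.80 and BLM at 1.89.

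Exonic bases were shared with some other gene for 35 of the 52 members in GENCODE release 29, and 11 shared at least 10% of them with a protein-coding gene, on the opposite strand only for 9. EXO1, BLM, FANCM, FANCB and DDB2 shared none with any gene. Among the other members of the 11, OGG1 shared 25.0% with CAMK1, ERCC1 28.6% with the gene counted as POLR1G and MSH6 16.2% with FBXO11. Of the last 500 exonic bases, CAMK1 and POLR1G covered 0 and FBXO11 covered 106. TADA3, on the opposite strand, covered 356 of the last 500 of OGG1 and had 90 GLE and 128 DMSO counts. Its part in the value of OGG1 was not tested.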
